A study of Mus musculus with 6 samples.

Results

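The glycolysis and hypoxia genes described here are a list of 36 mouse genes, made up of 19 genes for glycolytic enzymes, 7 genes for kinases that steer glucose carbon (the Pdk and Pfkfb families) and 10 genes of the hypoxia pathway. They were chosen by name, and each was read from its brightest probe set over all arrays. Of the 36, 32 were measured, out of 18193 genes with a probe set of their own. Gapdh, Gpi1, Eno1 and Pfkfb1 were not analysed here, since no usable probe set carried their symbol alone. The mean of 1 measured member, Eno2, lay below background.

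The RNA came from LSK cells, the lineage-negative bone marrow cells that carry Sca1 and Kit and hold the blood stem cells and early multipotent progenitors. The cells were sorted from adult mice 10 to 14 weeks old by 2 surface antigens, CD34 and the cytokine receptor Flt3. The groups were CD34+Flt3hi, CD34+Flt3- and CD34-Flt3- cells, with 2 expression arrays each, and the series looked for expression changes between LSK fractions that differ in function. In textbooks the CD34-Flt3- fraction is enriched for long-term stem cells, the CD34+Flt3- fraction for short-term stem cells and the CD34+Flt3hi fraction for progenitors primed toward lymphoid fates. Strain, sex and pooling of mice are not given in the sources used here, and no mutation or treatment is named for any group. Whether a group's 2 arrays stem from different mice or sorts is not stated, so the p-values reflect only how far these arrays spread, which may be technical. The titles also hold codes whose meaning is not stated. All replicate 2 arrays share one code (A), replicate 1 of CD34+Flt3hi and of CD34+Flt3- cells share another (B), and CD34-Flt3- replicate 1 has its own (C). The difference within code A, with 1 array per group, is given beside the results.

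Glycolysis turns glucose into pyruvate in a fixed order of steps, most of them served by several enzyme isoforms encoded by separate genes, and lactate dehydrogenase then interconverts pyruvate and lactate. The transcription factor HIF pairs an oxygen-regulated subunit, Hif1a or Epas1, with the constant partner Arnt. With oxygen present, the prolyl hydroxylases Egln1 to Egln3 mark the regulated subunit and the Vhl ubiquitin ligase removes it, so HIF activity is set mainly at the protein level, which arrays do not measure. Many glycolytic genes are known HIF targets, and stem cells of the marrow are known for reliance on glycolysis.

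HIF binds a short DNA core, the hypoxia response element, whose first base is A or G. Only its form with A, ACGTG, was taken here. ACGTG was searched for on both strands of RefSeq's promoter table (GRCm38.p6), in the 250 bases before each start. The table's 50 bases after each start were left out. By symbol, 35 of the 36 genes matched. At least 1 promoter held ACGTG for 19 of these 35 genes (54.3%) and for 4 of the 8 that passed a test below (50%). The same held for 4998 of all 27025 genes (18.5%). Promoter by promoter, 23 of the members' 56 (41.1%) and 5444 of all 32851 (16.6%) held it. Windows of 80 bases are shown for those 4 and for Ldha, the member with the most matches, 5, which did not pass. Capitals mark a match on either strand, and CACGTG holds one on each strand and is also the E-box that Myc and other factors bind. The windows lie at chr7:126799339-126799418 (minus strand) for Aldoa, chr15:98092416-98092495 (plus) for Pfkm, chr19:41911719-41911798 (plus) for Pgam1, chr12:54204045-54204124 (minus) for Egln3 and chr7:46845724-46845803 (plus) for Ldha, all before the annotated start.
Aldoa: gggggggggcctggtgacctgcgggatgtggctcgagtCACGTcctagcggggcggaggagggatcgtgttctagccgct
Pfkm: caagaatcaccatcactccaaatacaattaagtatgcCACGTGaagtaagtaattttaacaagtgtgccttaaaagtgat
Pgam1: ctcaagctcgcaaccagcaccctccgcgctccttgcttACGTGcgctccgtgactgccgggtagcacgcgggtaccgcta
Egln3: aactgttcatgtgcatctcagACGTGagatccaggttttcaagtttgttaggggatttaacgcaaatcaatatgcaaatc
Ldha: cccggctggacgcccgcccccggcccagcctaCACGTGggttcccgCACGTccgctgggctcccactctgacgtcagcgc
Among the genes with a match, Aldoa and Pfkm fell, while Pgam1 and Egln3 rose, in CD34+Flt3hi against CD34-Flt3- cells. A match is a run of letters and not a shown binding site. No ACGTG was found in the searched bases of Aldoc, Ldhb, Pfkl or Eno2, and the form with G was not searched for in any gene.

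Values are log2 array intensities, on which probe sets of different genes cannot be ranked against each other. Background lay at a log2 of 4.50, and 26.7% of all genes had a mean below it. Median linear intensities were 29.7 to 31.4 on the 6 arrays. Over all genes (not independent of one another) a group's 2 arrays correlated with Pearson's r of 0.990 in CD34+Flt3hi, 0.981 in CD34+Flt3- and 0.969 in CD34-Flt3- cells. The members' median SD between arrays was 0.15, 0.21 and 0.33 in the same order, so the CD34-Flt3- values are the least certain. The sorted antigen Cd34 read 11.35 and 11.34 in CD34+Flt3hi, 10.51 and 10.68 in CD34+Flt3- and 8.78 and 9.45 in CD34-Flt3- cells, which follows the sort. Flt3 read 12.01 and 11.75 in CD34+Flt3hi, 8.84 and 9.81 in CD34+Flt3- and 7.65 and 9.16 in CD34-Flt3- cells, so its RNA was well above background in both groups sorted as negative. Kit ranged from 8.82 to 10.99 over the 6 arrays.

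Glycolytic enzyme genes mostly lay lower in both CD34+ groups than in CD34-Flt3- cells, while Pgam1 and Hk3 among the enzyme genes and Egln3 among the hypoxia genes lay higher in both CD34+ groups, Hk3 without passing a test. In CD34+Flt3hi against CD34-Flt3- cells, 6 of the 32 members fell (Aldoa, Aldoc, Pfkm, Ldhb, Pfkl and Eno2) and 2 rose (Egln3 and Pgam1), where limma called 6.11% of all genes at an adjusted p under 0.05, 2.62% as higher and 3.5% as lower. In this comparison 15 members had an unadjusted p under 0.05, beside 18.3% of all genes. In CD34+Flt3- against CD34-Flt3- cells, 3 members fell (Aldoa, Aldoc and Pfkm) and 0 rose, against 2.1% of all genes called, 0.77% as higher and 1.33% as lower. Here 14 members had an unadjusted p under 0.05, beside 16.9% of all genes. Between CD34+Flt3hi and CD34+Flt3- cells, limma called 0 members, against 0.61% of all genes (0.385% higher, 0.225% lower), and 4 members had an unadjusted p under 0.05, beside 6.76% of all genes. The 16 measured enzyme genes had a median log2 difference of -0.79 between CD34+Flt3hi and CD34-Flt3- cells and -0.72 between CD34+Flt3- and CD34-Flt3- cells, beside medians of -0.07 and -0.10 over all genes. The 6 Pdk and Pfkfb genes had medians of 0.19 and -0.12 in these comparisons, and the 10 hypoxia genes -0.0017 and -0.53. In bulk arrays, fewer cells of a type and less RNA per cell cannot be told apart. Arrays of the groups did not overlap for 20 of the 32 members between CD34+Flt3hi and CD34-Flt3- cells (47.9% of all genes), for 23 between CD34+Flt3- and CD34-Flt3- cells (44.2%) and for 16 between CD34+Flt3hi and CD34+Flt3- cells (40.4%).

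**Figure D1:**
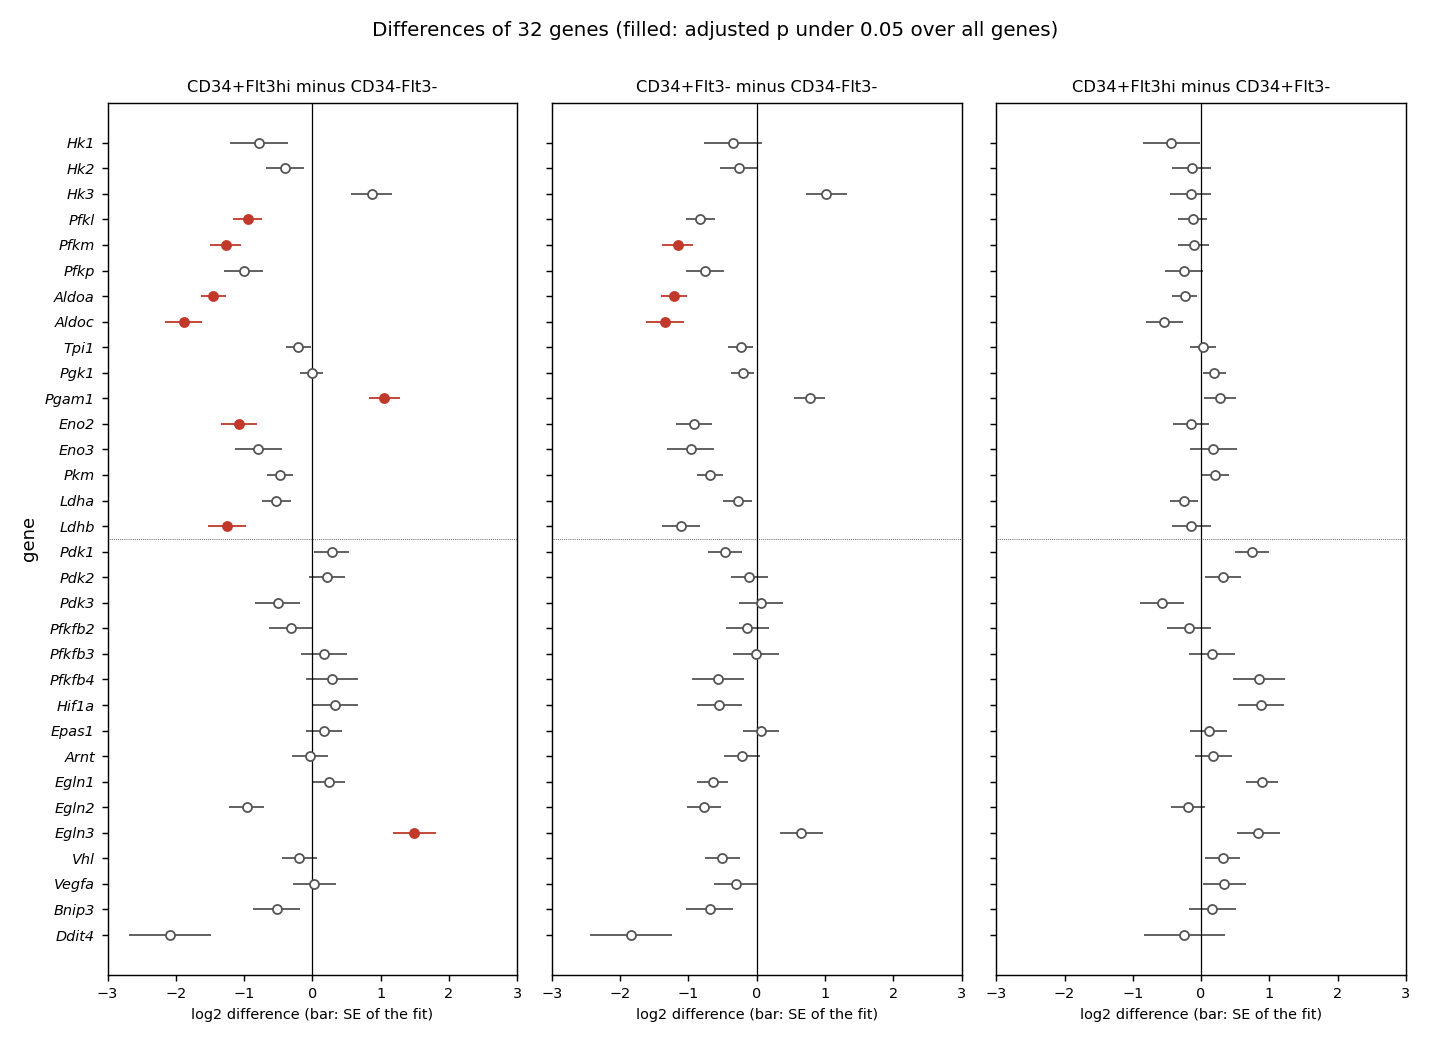
Log2 differences (x axis) of the 32 measured genes (y axis) in 3 panels, one for each comparison named in its title (first group minus second), with the standard error of the limma fit as bars; filled red points have an adjusted p under 0.05 over all genes, and the dotted line parts the 16 enzyme genes from the others. Most enzyme points lie left of 0 in both comparisons with CD34-Flt3- cells, with Hk3 and Pgam1 on the right, and no point is filled between the CD34+ groups.

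At the entry to glycolysis, hexokinases phosphorylate glucose, and no hexokinase gene passed a test. Hk1, the broadly expressed form, read 9.28 and 9.27 in CD34+Flt3hi, 10.33 and 9.09 in CD34+Flt3- and 10.59 and 9.52 in CD34-Flt3- cells. Replicate 1 stood over 1 log2 unit above replicate 2 in the CD34+Flt3- and CD34-Flt3- groups, and only the CD34+Flt3hi and CD34-Flt3- arrays did not overlap. Hk2, the insulin-responsive and HIF-inducible form, read 7.70 and 8.29 in CD34+Flt3hi, 8.07 and 8.20 in CD34+Flt3- and 8.24 and 8.54 in CD34-Flt3- cells. Hk3, a form known from myeloid cells, read 8.58 and 8.12 in CD34+Flt3hi, 8.18 and 8.83 in CD34+Flt3- and 7.39 and 7.57 in CD34-Flt3- cells. Both CD34+ groups lay above the CD34-Flt3- arrays for Hk3, by 0.87 ± 0.30 (SE of the limma fit, adjusted p = 0.145) in CD34+Flt3hi and 1.02 ± 0.30 (adjusted p = 0.121) in CD34+Flt3- cells.

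Phosphofructokinase commits sugar to glycolysis as a tetramer of liver, muscle and platelet type subunits, and all 3 genes were lowest on CD34+Flt3hi or CD34+Flt3- arrays and highest on CD34-Flt3- arrays. Pfkm, the muscle type, read 8.46 and 8.27 in CD34+Flt3hi, 8.56 and 8.39 in CD34+Flt3- and 9.65 and 9.63 in CD34-Flt3- cells. The CD34-Flt3- arrays stood apart by about 1 log2 unit, with both CD34+ groups close together. Pfkm fell 2.41-fold in CD34+Flt3hi against CD34-Flt3- cells (log2 difference -1.27 ± 0.23, SE, limma adjusted p = 0.0108, code A -1.36) and 2.23-fold in CD34+Flt3- against CD34-Flt3- cells (-1.16 ± 0.23, adjusted p = 0.037, code A -1.24). Pfkl, the liver type, read 9.74 and 9.82 in CD34+Flt3hi, 9.91 and 9.90 in CD34+Flt3- and 10.51 and 10.95 in CD34-Flt3- cells. It fell 1.93-fold in CD34+Flt3hi against CD34-Flt3- cells (-0.95 ± 0.22, limma adjusted p = 0.0298, code A -1.13), and its difference of -0.82 in CD34+Flt3- cells did not pass (adjusted p = 0.0883). Pfkp, the platelet type, read 7.77 and 7.77 in CD34+Flt3hi, 8.14 and 7.89 in CD34+Flt3- and 9.10 and 8.45 in CD34-Flt3- cells. Its groups did not overlap, yet its differences of -1.01 and -0.76 from CD34-Flt3- cells did not pass (limma adjusted p = 0.0728 and 0.212).

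Aldolase splits the doubly phosphorylated sugar into the triose phosphates, and both measured aldolase genes fell in each CD34+ group. Aldoa, the ubiquitous form, read 9.98 and 10.09 in CD34+Flt3hi, 10.29 and 10.25 in CD34+Flt3- and 11.41 and 11.56 in CD34-Flt3- cells. Its 2 arrays of each group lay close together and no groups overlapped. It was 2.74-fold lower in CD34+Flt3hi (log2 difference -1.45 ± 0.18, SE, limma adjusted p = 0.00182, code A -1.47) and 2.32-fold lower in CD34+Flt3- (-1.21 ± 0.18, adjusted p = 0.0176, code A -1.31) than in CD34-Flt3- cells. Every Aldoa probe set carries the x suffix, which the array's maker gives to probes that may also bind other transcripts. Aldoc, the form known best from brain, read 6.95 and 6.84 in CD34+Flt3hi, 7.66 and 7.22 in CD34+Flt3- and 8.64 and 8.92 in CD34-Flt3- cells. Its groups were ordered without overlap, and it was 3.69-fold lower in CD34+Flt3hi (-1.88 ± 0.27, limma adjusted p = 0.00355, code A -2.08) and 2.54-fold lower in CD34+Flt3- (-1.34 ± 0.27, adjusted p = 0.0403, code A -1.70) than in CD34-Flt3- cells. The other Aldoc probe set lay below background.

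In the steps from triose phosphate to phosphoglycerate, only Pgam1 of the 3 measured genes passed a test. Tpi1, which interconverts the triose phosphates, read 10.47 and 10.60 in CD34+Flt3hi, 10.48 and 10.53 in CD34+Flt3- and 10.85 and 10.64 in CD34-Flt3- cells. Pgk1, which makes the first ATP of the pathway and is a classical HIF target, read 11.43 and 11.36 in CD34+Flt3hi, 11.32 and 11.08 in CD34+Flt3- and 11.33 and 11.48 in CD34-Flt3- cells. Neither gene's means differed by more than 0.24 between any groups. Pgam1, phosphoglycerate mutase, read 10.07 and 9.81 in CD34+Flt3hi, 9.77 and 9.56 in CD34+Flt3- and 9.02 and 8.76 in CD34-Flt3- cells. Its groups were ordered without overlap in the opposite sense to the aldolases. Pgam1 rose 2.07-fold in CD34+Flt3hi against CD34-Flt3- cells (log2 difference 1.05 ± 0.23, SE, limma adjusted p = 0.0241, code A 1.05), and its difference of 0.78 in CD34+Flt3- cells did not pass (adjusted p = 0.121).

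Enolase and pyruvate kinase complete the route to pyruvate. Eno2, the neuronal enolase, read 3.99 and 3.71 in CD34+Flt3hi, 4.17 and 3.83 in CD34+Flt3- and 4.60 and 5.26 in CD34-Flt3- cells, above background on the CD34-Flt3- arrays alone. It was at least 1.34-fold lower in CD34+Flt3hi against CD34-Flt3- cells (limma adjusted p = 0.0408), with background standing in for the CD34+ values. Eno3, the muscle enolase, read 6.44 and 6.31 in CD34+Flt3hi, 6.50 and 5.89 in CD34+Flt3- and 6.75 and 7.57 in CD34-Flt3- cells, and its differences of -0.79 and -0.97 did not pass (adjusted p = 0.258 and 0.191). Pkm, pyruvate kinase, read 10.55 and 10.51 in CD34+Flt3hi, 10.48 and 10.16 in CD34+Flt3- and 11.02 and 10.98 in CD34-Flt3- cells. All 4 CD34+ arrays lay below both CD34-Flt3- arrays, by 0.47 ± 0.19 in CD34+Flt3hi (SE, limma adjusted p = 0.225) and 0.68 ± 0.19 in CD34+Flt3- cells (adjusted p = 0.109).

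Lactate dehydrogenase is a tetramer of an A subunit that favours lactate and a B subunit that favours pyruvate. Ldha read 11.54 and 11.20 in CD34+Flt3hi, 11.75 and 11.49 in CD34+Flt3- and 12.14 and 11.65 in CD34-Flt3- cells. Its differences from CD34-Flt3- cells were -0.53 and -0.28 (limma adjusted p = 0.214 and 0.547). Ldhb read 8.82 and 9.04 in CD34+Flt3hi, 9.15 and 9.0 in CD34+Flt3- and 9.78 and 10.58 in CD34-Flt3- cells. The 4 CD34+ arrays lay together below the CD34-Flt3- arrays, which lay far apart themselves. Ldhb fell 2.38-fold in CD34+Flt3hi against CD34-Flt3- cells (log2 difference -1.25 ± 0.28, SE, limma adjusted p = 0.0286, code A -1.54), and its difference of -1.11 in CD34+Flt3- cells did not pass (adjusted p = 0.0839). All 3 other Ldhb probe sets ran the same way, from -1.09 to -1.29 between CD34+Flt3hi and CD34-Flt3- cells.

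**Figure D2:**
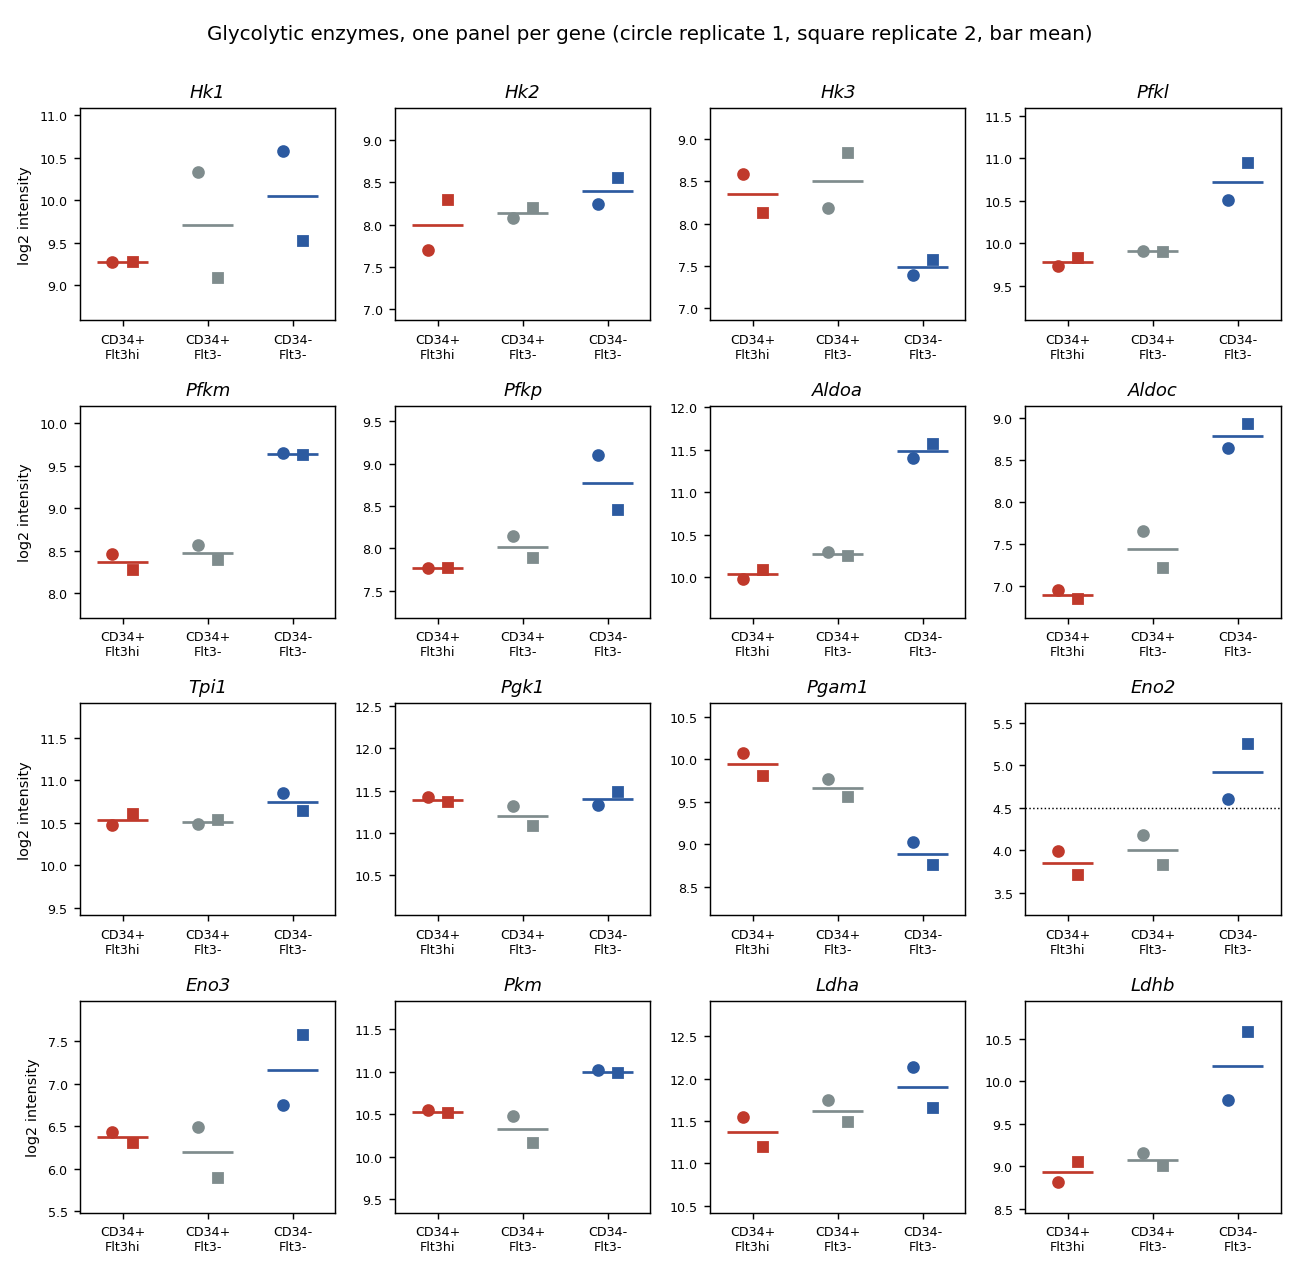
Log2 intensity (y axis) of the 16 measured glycolytic enzyme genes on each array of CD34+Flt3hi, CD34+Flt3- and CD34-Flt3- cells, with circles for replicate 1, squares for replicate 2, bars for the means of 2 arrays and a dotted line at the background of 4.50 where it falls in the panel. The CD34-Flt3- arrays are highest for Pfkl, Pfkm, Pfkp, Aldoa, Aldoc, Tpi1, Eno2, Eno3, Pkm and Ldhb and lowest for Hk3 and Pgam1.

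The calls for CD34+Flt3hi against CD34-Flt3- cells held to unequal degrees under the alternative fits. Leaving out an array changes the estimate of the spread for every gene. A lost call thus need not stem from that array's values for the gene. Aldoa passed under all 17 alternatives run on it, with adjusted p between 6.98e-06 and 0.0444. Without CD34+Flt3hi replicate 1, Aldoa (adjusted p = 0.0444) and Aldoc (0.0491) passed, and Pfkm, Eno2, Egln3, Ldhb, Pfkl and Pgam1 did not (adjusted p = 0.112, 0.16, 0.269, 0.287, 0.311 and 0.344). Without CD34+Flt3hi replicate 2, Aldoa passed (0.0345), and Aldoc, Egln3, Pgam1, Ldhb, Pfkm, Pfkl and Eno2 did not (adjusted p = 0.0626, 0.0692, 0.16, 0.163, 0.175, 0.23 and 0.314). Ldhb, Pfkl and Eno2 also lost their calls without CD34-Flt3- replicate 2 (log2 differences -0.85, -0.73 and -0.75). They lost them without either CD34+Flt3- array too, though their differences stayed at -1.25, -0.95 and -1.08. There only the estimated spread and the adjustment changed for Ldhb, Pfkl and Eno2. Their adjusted p reached 0.287, 0.36 and 0.314 over all alternatives, and the highest was 0.739 for Aldoc, 0.298 for Egln3, 0.175 for Pfkm and 0.344 for Pgam1. The 3 calls for CD34+Flt3- against CD34-Flt3- cells were lost when any 1 of the 4 CD34+ arrays was left out, with adjusted p from 0.0581 to 0.357.

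Pyruvate dehydrogenase kinases hold pyruvate out of the mitochondrial cycle by shutting pyruvate dehydrogenase, and Pdk1 is a known HIF target. Pdk1 read 9.94 and 9.57 in CD34+Flt3hi, 9.26 and 8.75 in CD34+Flt3- and 9.47 and 9.47 in CD34-Flt3- cells. It was lowest in the middle group without overlap, and exceeded CD34+Flt3- cells by 0.74 ± 0.25 in CD34+Flt3hi cells (SE, limma adjusted p = 0.464, codes A and B 0.82 and 0.67). The other 3 Pdk1 probe sets differed by 1.15, 1.12 and 0.03 between the CD34+ groups and did not pass either (adjusted p = 0.336, 0.193 and 1.0 over all probe sets). Pdk3 read 8.11 and 7.74 in CD34+Flt3hi, 8.75 and 8.25 in CD34+Flt3- and 8.83 and 8.05 in CD34-Flt3- cells, so its CD34+Flt3hi arrays lay below its CD34+Flt3- arrays in both codes (-0.51 and -0.63, adjusted p = 0.858). Pdk2 read 4.85 and 5.08 in CD34+Flt3hi, 4.81 and 4.49 in CD34+Flt3- and 5.01 and 4.50 in CD34-Flt3- cells, close to background on every array.

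The Pfkfb enzymes set the level of fructose 2,6-bisphosphate, the strongest activator of phosphofructokinase, and none of the 3 measured genes passed a test. Pfkfb2 read 5.94 and 5.53 in CD34+Flt3hi, 5.78 and 6.04 in CD34+Flt3- and 5.70 and 6.39 in CD34-Flt3- cells. Pfkfb3, the form with the highest kinase activity and a HIF target, read 6.76 and 6.85 in CD34+Flt3hi, 6.99 and 6.29 in CD34+Flt3- and 6.98 and 6.31 in CD34-Flt3- cells. Both genes overlapped between all groups. Pfkfb4 read 6.66 and 7.64 in CD34+Flt3hi, 6.60 and 6.0 in CD34+Flt3- and 6.61 and 7.12 in CD34-Flt3- cells, and its difference between the CD34+ groups, 0.85 ± 0.38 (SE, limma adjusted p = 0.738), was 1.64 in code A and 0.06 in code B.

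None of the HIF subunit genes passed at its brightest probe set, while the other Epas1 probe set did. Hif1a read 8.54 and 8.42 in CD34+Flt3hi, 7.81 and 7.39 in CD34+Flt3- and 8.62 and 7.67 in CD34-Flt3- cells. Its CD34+Flt3- arrays lay below both CD34+Flt3hi arrays, by 0.88 ± 0.34 (SE, limma adjusted p = 0.595, codes A and B 1.04 and 0.73), while the CD34-Flt3- arrays spanned nearly the whole range. Arnt, the constant partner, read 6.80 and 7.09 in CD34+Flt3hi, 6.82 and 6.71 in CD34+Flt3- and 6.91 and 7.04 in CD34-Flt3- cells, with means within 0.21 of each other. Epas1, which encodes HIF-2 alpha, gave readings that depended on the probe set. The brightest read 4.94 and 5.29 in CD34+Flt3hi, 5.22 and 4.79 in CD34+Flt3- and 5.01 and 4.89 in CD34-Flt3- cells, with overlap between all groups. The other read 3.89 and 3.45 in CD34+Flt3hi, 4.12 and 3.69 in CD34+Flt3- and 6.28 and 5.84 in CD34-Flt3- cells, below background in both CD34+ groups and above it in CD34-Flt3- cells. Tested singly, it was at least 2.94-fold lower in CD34+Flt3hi and in CD34+Flt3- against CD34-Flt3- cells (limma adjusted p = 0.00184 and 0.0183 over all probe sets).

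The HIF prolyl hydroxylase genes ran in different directions. Egln3, the hypoxia-inducible form, read 7.62 and 7.01 in CD34+Flt3hi, 6.29 and 6.66 in CD34+Flt3- and 5.67 and 5.97 in CD34-Flt3- cells. Its groups were ordered without overlap, with CD34+Flt3hi highest. Egln3 rose 2.82-fold in CD34+Flt3hi against CD34-Flt3- cells (log2 difference 1.49 ± 0.31, SE, limma adjusted p = 0.0199, code A 1.04), and its other probe set differed by 0.74 (adjusted p = 0.298 over all probe sets). Egln2 read 8.92 and 8.93 in CD34+Flt3hi, 9.31 and 8.92 in CD34+Flt3- and 9.63 and 10.14 in CD34-Flt3- cells. It was highest in CD34-Flt3- cells without overlap, and its difference of -0.96 ± 0.26 in CD34+Flt3hi cells just missed the threshold (limma adjusted p = 0.0574, code A -1.21). Without CD34-Flt3- replicate 1 that difference was -1.22, with only the higher CD34-Flt3- array left. Egln1, the main oxygen sensor of the family, read 9.19 and 9.09 in CD34+Flt3hi, 8.17 and 8.33 in CD34+Flt3- and 8.98 and 8.82 in CD34-Flt3- cells. It was lowest in the middle group, by 0.89 ± 0.23 against CD34+Flt3hi cells (limma adjusted p = 0.209, codes A and B 0.76 and 1.02), the smallest adjusted p of any member in that comparison. Vhl read 7.34 and 7.44 in CD34+Flt3hi, 7.17 and 6.98 in CD34+Flt3- and 7.52 and 7.64 in CD34-Flt3- cells, likewise lowest in the middle group, with no test passed.

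The 3 hypoxia-inducible members outside the pathway's own machinery did not pass a test either. Vegfa, an angiogenic growth factor, read 5.86 and 6.48 in CD34+Flt3hi, 5.74 and 5.92 in CD34+Flt3- and 5.89 and 6.39 in CD34-Flt3- cells. Bnip3, a mitophagy receptor, read 7.95 and 8.0 in CD34+Flt3hi, 7.75 and 7.87 in CD34+Flt3- and 9.06 and 7.94 in CD34-Flt3- cells, so 1 CD34-Flt3- array stood apart from the other 5. Without CD34-Flt3- replicate 2, only that higher array stood for its group. The Bnip3 log2 differences from it were then -1.08 in CD34+Flt3hi and -1.25 in CD34+Flt3- cells. Within code A, which holds replicate 2, they were 0.06 and -0.07. Ddit4, a stress-induced inhibitor of mTORC1, read 5.47 and 4.78 in CD34+Flt3hi, 6.19 and 4.55 in CD34+Flt3- and 6.41 and 8.02 in CD34-Flt3- cells. It had the largest gap between replicates of any member in both CD34-Flt3- (1.61) and CD34+Flt3- cells (1.64), and its difference of -2.08 ± 0.60 between CD34+Flt3hi and CD34-Flt3- cells did not pass (adjusted p = 0.0769, code A -3.24). Without CD34-Flt3- replicate 1 it was -2.89, with only the higher CD34-Flt3- array left.

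**Figure D3:**
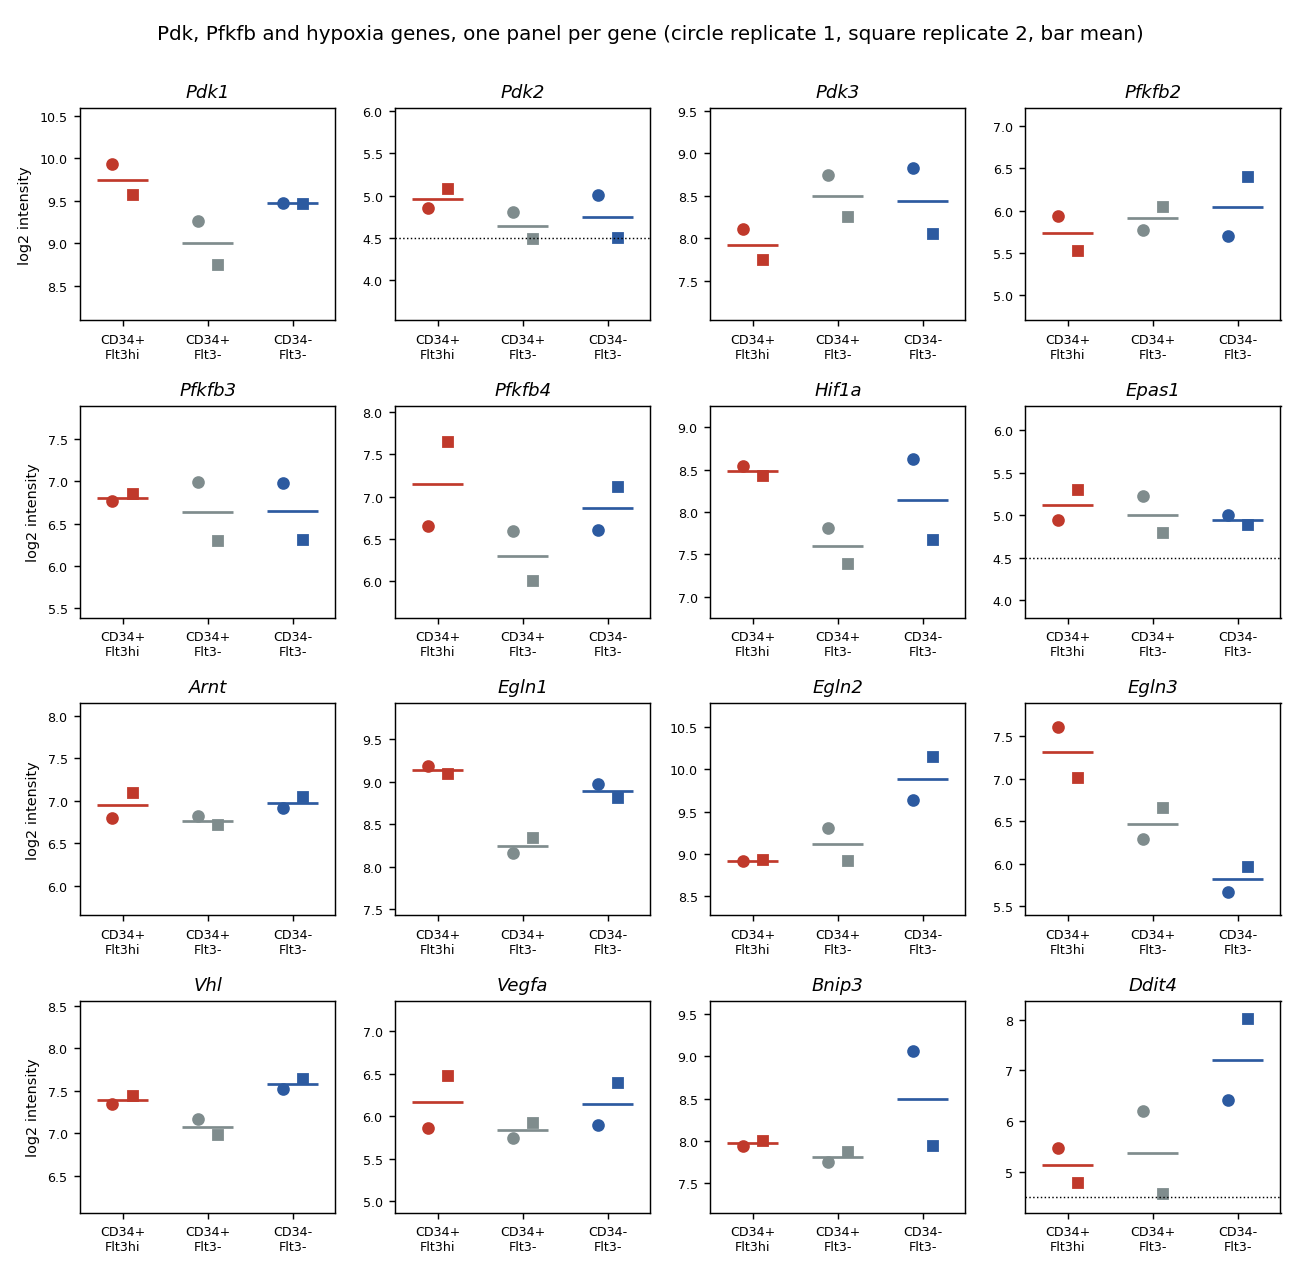
Log2 intensity (y axis) of the 6 measured Pdk and Pfkfb genes and the 10 hypoxia genes on each array of CD34+Flt3hi, CD34+Flt3- and CD34-Flt3- cells, with circles for replicate 1, squares for replicate 2, bars for the means of 2 arrays and a dotted line at the background of 4.50 where it falls in the panel. Egln3 is highest on the CD34+Flt3hi arrays and Egln2 on the CD34-Flt3- arrays, and Pdk1, Egln1 and Vhl are lowest on the CD34+Flt3- arrays.

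Several of these genes were lowest in the middle CD34+Flt3- group, so the step from CD34+Flt3- to CD34+Flt3hi was tested against the step from CD34-Flt3- to CD34+Flt3-. No member passed that test in limma, which called 0.0275% of all genes, 0.0165% as higher and 0.011% as lower. The smallest adjusted p values were 0.344 for Egln1, 0.434 for Aldoa and 0.473 for Pdk1. Of the 3 genes that fell in CD34+Flt3- against CD34-Flt3- cells, Aldoa differed by -1.21, Pfkm by -1.16 and Aldoc by -1.34 there, and by -0.24, -0.11 and -0.54 in CD34+Flt3hi against CD34+Flt3- cells. Those 2 values of a gene share the CD34+Flt3- arrays.

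Ratios of related genes on the same array showed which members of a family moved apart. They are a description, since with 2 arrays per group the smallest p an exact permutation test can give is 0.333. Not every pair taken is given here, and lack of overlap alone says little. Among single genes, 47.9% of all did not overlap between CD34+Flt3hi and CD34-Flt3- cells, and 40.4% between the CD34+ groups. Egln2 over Egln3 had a log2 ratio of 1.30 and 1.92 in CD34+Flt3hi, 3.02 and 2.26 in CD34+Flt3- and 3.96 and 4.18 in CD34-Flt3- cells. This ratio shifted by -2.46 between CD34+Flt3hi and CD34-Flt3- cells, with no overlap between any of the groups. Egln1 over Egln2 read 0.27 and 0.17 in CD34+Flt3hi, -1.14 and -0.59 in CD34+Flt3- and -0.65 and -1.33 in CD34-Flt3- cells, so it was high in CD34+Flt3hi cells and overlapped between the others. Hk2 over Hk3 read -0.88 and 0.17 in CD34+Flt3hi, -0.11 and -0.63 in CD34+Flt3- and 0.85 and 0.97 in CD34-Flt3- cells, a shift of -1.27 and -1.28 in the CD34+ groups. Pdk1 over Pdk3 read 1.82 and 1.83 in CD34+Flt3hi, 0.52 and 0.50 in CD34+Flt3- and 0.65 and 1.42 in CD34-Flt3- cells, with no overlap between any groups.

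Ratios within the enzyme families that held genes that fell were also taken. Pfkl over Pfkm shifted by 0.32 in CD34+Flt3hi against CD34-Flt3- cells, with overlapping arrays, and by 0.34 in CD34+Flt3- against CD34-Flt3- cells, without overlap. Pfkm over Pfkp shifted by -0.26 with overlap and by -0.40 without overlap in the same comparisons. Aldoa over Aldoc shifted by 0.43 without overlap and by 0.13 with overlap. Ldha over Ldhb read 2.72 and 2.15 in CD34+Flt3hi, 2.60 and 2.49 in CD34+Flt3- and 2.36 and 1.07 in CD34-Flt3- cells. The subunit ratio of lactate dehydrogenase shifted by 0.73 and 0.83 in these comparisons. It was lowest on the CD34-Flt3- replicate 2 array, and the CD34-Flt3- arrays overlapped those of CD34+Flt3hi but not those of CD34+Flt3- cells.

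**Figure D4:**
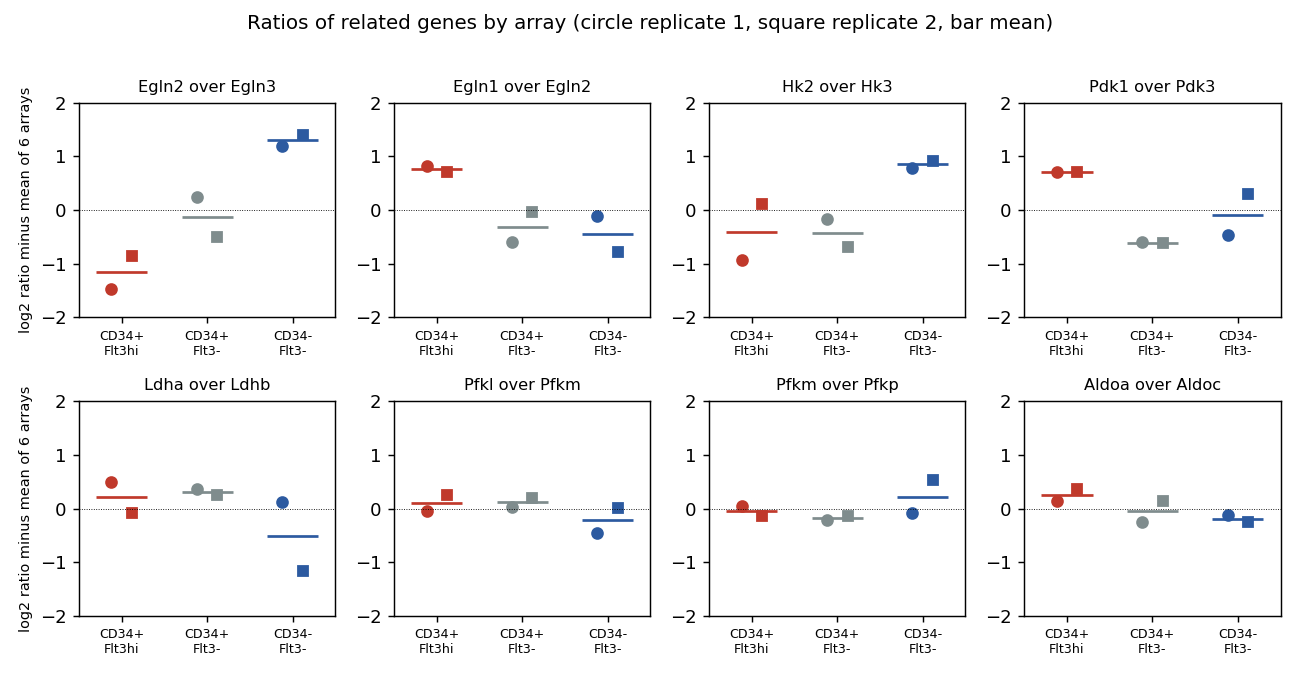
Log2 ratio of 2 related genes on each array, minus its mean over the 6 arrays (y axis), for 8 pairs in CD34+Flt3hi, CD34+Flt3- and CD34-Flt3- cells; circles are replicate 1, squares replicate 2 and bars means of 2 arrays. Egln2 over Egln3 is ordered with CD34+Flt3hi lowest and CD34-Flt3- highest, while Pfkl over Pfkm and Pfkm over Pfkp stay within 0.6 of their mean.

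Of the 32 measured members, 19 had further probe sets, 37 in all, each tested singly beside all probe sets that carry 1 symbol. Between CD34+Flt3hi and CD34-Flt3- cells, 28 of the 37 had the sign of the brightest probe set, and 26 of the 32 above background did; singly, 4.13% of all probe sets passed. For Aldoa, 3 of the 4 others differed by -1.21 to -1.62 and 1 by -0.24. Pfkl had 1 probe set at -0.92 and 1 at 0.59. The Epas1 probe sets disagreed, with 0.17 for the brightest and -2.39 for the other, whose CD34+Flt3hi values lay below background.

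**Figure D5:**
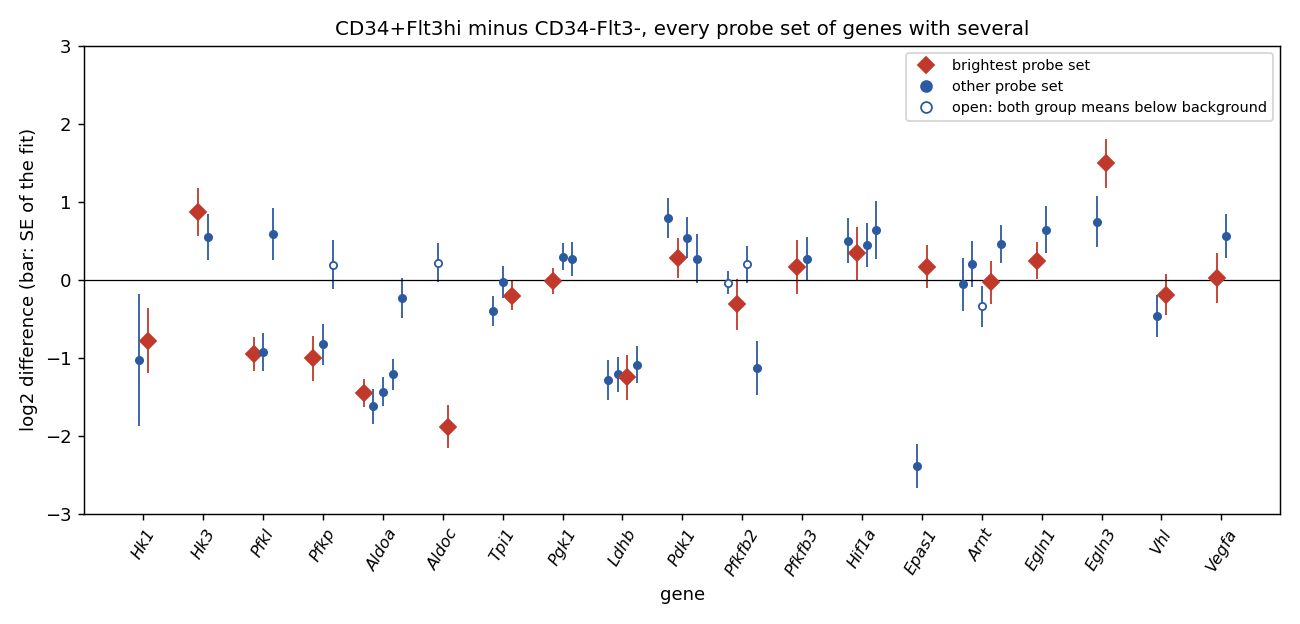
Log2 difference of CD34+Flt3hi minus CD34-Flt3- cells (y axis) for every probe set of the 19 genes with several (x axis), with the standard error of the limma fit as bars; diamonds are the brightest probe set, circles the others, and open circles have both group means below background. The Ldhb probe sets lie together near -1.2, whereas those of Epas1, Aldoc and Pfkl, among others, lie on both sides of 0. The dimmer Aldoc probe set lay below background in both groups, and the dimmer Epas1 probe set in CD34+Flt3hi cells alone.

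Counts for genes next to these in metabolism stand beside the shares of all genes that limma called. These shares were 6.11% in CD34+Flt3hi and 2.1% in CD34+Flt3- against CD34-Flt3- cells. Of 21 other measured genes of glycolysis and gluconeogenesis, Galm and Bpgm fell and 0 rose in CD34+Flt3hi against CD34-Flt3- cells, and Galm fell in CD34+Flt3- against CD34-Flt3- cells. Galm, which interconverts the 2 ring forms of glucose, read 5.19 and 5.18 in CD34+Flt3hi, 5.24 and 5.73 in CD34+Flt3- and 7.21 and 6.67 in CD34-Flt3- cells, with log2 differences of -1.76 ± 0.30 and -1.46 ± 0.30 (SE, limma adjusted p = 0.008 and 0.0421). Bpgm, the mutase that makes 2,3-bisphosphoglycerate, read 7.0 and 7.46 in CD34+Flt3hi, 7.86 and 7.69 in CD34+Flt3- and 8.64 and 8.26 in CD34-Flt3- cells, a difference of -1.22 ± 0.28 for CD34+Flt3hi cells (adjusted p = 0.0311). Both genes were highest on the CD34-Flt3- arrays without overlap. Of 8 carriers of glucose and lactate, Slc2a3, a high-affinity glucose transporter, fell in CD34+Flt3hi against CD34-Flt3- cells and the others did not pass. Slc2a3 read 9.46 and 9.42 in CD34+Flt3hi, 10.31 and 9.72 in CD34+Flt3- and 10.98 and 11.11 in CD34-Flt3- cells (-1.60 ± 0.23, adjusted p = 0.00359).

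The same shares of all genes, 6.11% and 2.1%, stand beside the counts that follow. Of 8 measured genes of glycogen metabolism, Pygm, the muscle glycogen phosphorylase, fell in both CD34+ groups. It read 4.49 and 4.76 in CD34+Flt3hi, 4.19 and 4.43 in CD34+Flt3- and 7.17 and 6.54 in CD34-Flt3- cells, near background in all CD34+ arrays. It was 4.71-fold lower in CD34+Flt3hi (log2 difference -2.24 ± 0.29, SE, limma adjusted p = 0.00209) and at least 5.12-fold lower in CD34+Flt3- than in CD34-Flt3- cells (adjusted p = 0.00809). None of 10 measured genes of the pyruvate dehydrogenase complex and pyruvate carriers passed in any comparison, with 2 of them at an unadjusted p under 0.05 between CD34+Flt3hi and CD34-Flt3- cells. The smallest adjusted p there was 0.113 for Pdp1, a phosphatase that switches the complex on, at -1.0 between CD34+Flt3- and CD34-Flt3- cells, and Mpc1, a mitochondrial pyruvate carrier subunit, differed by 0.98 between CD34+Flt3hi and CD34-Flt3- cells (adjusted p = 0.207). None of 7 measured genes of the pentose phosphate pathway passed either, with 2 at an unadjusted p under 0.05 in that comparison, and Pgd and Pgls came nearest (-0.59 between CD34+Flt3- and CD34-Flt3- cells, adjusted p = 0.159, and 0.64 between CD34+Flt3hi and CD34-Flt3- cells, adjusted p = 0.179).

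Of 18 other regulators of the HIF pathway, Meis1 fell in CD34+Flt3hi against CD34-Flt3- cells and 0 rose. Meis1, a homeobox factor known to drive Hif1a in stem cells, read 9.35 and 9.68 in CD34+Flt3hi, 10.48 and 9.93 in CD34+Flt3- and 10.97 and 10.98 in CD34-Flt3- cells (log2 difference -1.45 ± 0.24, SE, limma adjusted p = 0.00614). Of 31 other measured hypoxia-inducible genes, 1 passed, Rora, a nuclear receptor. Rora read 5.72 and 6.38 in CD34+Flt3hi, 6.41 and 5.67 in CD34+Flt3- and 7.75 and 7.72 in CD34-Flt3- cells, and fell in both (-1.68 ± 0.34, adjusted p = 0.0176, and -1.70 ± 0.34, adjusted p = 0.0392). Beside these counts, limma called 6.11% of all genes in CD34+Flt3hi and 2.1% in CD34+Flt3- against CD34-Flt3- cells. The 2 lists had medians of -0.27 and -0.22 between CD34+Flt3hi and CD34-Flt3- cells, beside -0.07 over all genes. In CD34+Flt3hi against CD34+Flt3- cells limma called 0 genes of all these neighbouring lists, with at most 3 of a list at an unadjusted p under 0.05.

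Other properties of the arrays moved along with the groups. Summed linear intensities of 19 G2 and M phase genes were 19300 and 19804 in CD34+Flt3hi, 15694 and 16223 in CD34+Flt3- and 6447 and 1990 in CD34-Flt3- cells. Of these genes 18 rose in CD34+Flt3hi and 8 in CD34+Flt3- against CD34-Flt3- cells. The 4 with the smallest adjusted p in CD34+Flt3hi against CD34-Flt3- cells were Cenpf (log2 difference 3.54), Ccnb2 (3.17), Cdc20 (1.73) and Nusap1 (3.59). These genes, which mark dividing cells, thus ran opposite to most of the enzyme genes, and their part in the enzyme differences was not tested.

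Sums of 9 megakaryocyte genes were 369 and 319 in CD34+Flt3hi, 2499 and 1170 in CD34+Flt3- and 3873 and 4088 in CD34-Flt3- cells. In CD34+Flt3hi against CD34-Flt3- cells 6 of the 9 fell, among them Itga2b (-3.31), Itgb3 (-3.57) and 2 that were below background in CD34+Flt3hi cells, Vwf (at least 87.5-fold lower) and Pf4 (at least 7.39-fold lower), while Ppbp lay below background in every group mean. Sums of 9 endothelial and stromal genes were 299.98 and 232 in CD34+Flt3hi, 304 and 265 in CD34+Flt3- and 542 and 491 in CD34-Flt3- cells. Of these, 2 fell in CD34+Flt3hi against CD34-Flt3- cells, Kdr and Col1a2, and Kdr also in CD34+Flt3- against CD34-Flt3- cells, while the endothelial marker Cdh5 and the collagen gene Col3a1 lay below background in every group mean. The part of such cells or of these transcripts in the results was not tested.

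The 5 measured mature erythroid genes had sums of 88.2 and 90.2 in CD34+Flt3hi, 83.9 and 77.7 in CD34+Flt3- and 135 and 113 in CD34-Flt3- cells. All 5 had means over the 6 arrays below background, and none was called. Some group means lay above background. Rhag had 5.25 in CD34-Flt3- cells (arrays 6.22 and 4.28), against 3.57 in CD34+Flt3hi and 3.49 in CD34+Flt3- cells. Alas2 had 4.56 in CD34+Flt3hi cells, and Epb42 had 4.55 in CD34+Flt3- and 4.52 in CD34-Flt3- cells. Sums of 11 neutrophil and monocyte genes (1640 and 1305 in CD34+Flt3hi, 1334 and 1351 in CD34+Flt3-, 1295 and 1348 in CD34-Flt3- cells) overlapped between the groups, and S100a8, S100a9, Ltf and Lcn2 lay below background in every group mean. Of that list Csf1r rose in CD34+Flt3hi against both other groups. Lyz2 of the same list lay well above background on every array and was not called. It read 9.34 and 9.23 in CD34+Flt3hi, 9.95 and 9.84 in CD34+Flt3- and 10.0 and 9.99 in CD34-Flt3- cells. The 9 B lineage genes summed to 388 and 385 in CD34+Flt3hi, 365 and 417 in CD34+Flt3- and 502 and 493 in CD34-Flt3- cells, with none called in any comparison. The 8 T and NK lineage genes summed to 299 and 292 in CD34+Flt3hi, 387 and 433 in CD34+Flt3- and 328 and 416 in CD34-Flt3- cells, and 1, Thy1, fell in CD34+Flt3hi against both other groups. The manufacturer's actin control at the 3 prime end read 12426 and 12814 in CD34+Flt3hi, 12963 and 12587 in CD34+Flt3- and 7693 and 7368 in CD34-Flt3- cells in linear units. The 3 prime over 5 prime ratio of the Gapdh control, a sign of RNA quality, was 6.59 and 8.42 in CD34+Flt3hi, 6.83 and 7.50 in CD34+Flt3- and 5.04 and 6.34 in CD34-Flt3- cells. Its 3 prime probe set read a log2 of 12.86 and 12.91 in CD34+Flt3hi, 12.76 and 12.81 in CD34+Flt3- and 12.83 and 12.67 in CD34-Flt3- cells. The ratio and the actin control both set the CD34-Flt3- arrays apart without overlap, and their part in the results was not tested.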

How the data were processed

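RNA of sorted mouse LSK cells was measured on 6 one-colour Affymetrix arrays. The deposited value table holds RMA values, per the submitters' processing notes, with no version and no word on which arrays were processed together. The authors' values run from 6.50 to 24173, so they are read here as linear intensity, and log2 was taken of each deposited intensity. Of 45101 probe sets, 64 were controls, 34945 had a single gene symbol, 932 had several and 9160 had none, and 99.4% of gene identifiers matched the current annotation. The bacterial RNA read by 27 control probe sets was assumed not to have been added to the samples. The background level is the 90th percentile of these probe sets (22.6 linear). Where it stands in for a group below it, a fold is a lower bound.

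A limma model (version 3.58.1, R 4.3.3) with 1 mean per group used all arrays, with empirical Bayes and an intensity trend (3 residual and 6.86 prior degrees of freedom, median residual SD 0.24). Tests are two-sided, with Benjamini-Hochberg adjustment across 18193 genes and a threshold of 0.05; 6 arrays limit the precision. The fit was tested on simulated data. Members that passed, and members of families with several measured genes, are given on every array; Pkm was added with its values known. Of other lists, up to 4 genes past the threshold were named, or up to 2 as values. Members and lists were chosen with earlier results of these data known. Alternatives were the title code as a block, other variance models, scalings, filters and probe sets, and leaving out each array. Figures used matplotlib 3.10.9 in Python 3.11.15.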

Additional observations from a re-analysis of the deposited data

Results flagged for a closer look

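Probe sets that the main comparisons did not use gave 3 calls that the brightest probe set of the same gene did not. The dimmer Epas1 probe set had a log2 difference of -2.39 ± 0.28 between CD34+Flt3hi and CD34-Flt3- cells (SE, limma adjusted p = 0.00184 over all probe sets, code A -2.39) and of -2.15 ± 0.28 between CD34+Flt3- and CD34-Flt3- cells (adjusted p = 0.0183, code A -2.14), at least 2.94-fold in both with background standing in for the CD34+ arrays. The brightest Epas1 probe set differed by 0.17 (adjusted p = 0.807) and 0.06 (adjusted p = 0.938) in the same comparisons. An Ldhb probe set without the x suffix read 8.94 and 9.07 in CD34+Flt3hi, 8.97 and 8.94 in CD34+Flt3- and 10.06 and 10.38 in CD34-Flt3- cells, and fell by 1.26 between CD34+Flt3- and CD34-Flt3- cells (adjusted p = 0.0349), where the brightest Ldhb probe set gave -1.11 (adjusted p = 0.0839). Singly, 1.12% of all probe sets passed between CD34+Flt3- and CD34-Flt3- cells.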

How the results depend on the processing

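Over the 32 members and all alternatives, 1625 values kept their side of the threshold, 50 lost a call, 33 gained one and 5 turned. Most of the 1625 were called in neither fit, so that count does not show how firm the calls were. All 50 losses fell on the few values called in the main fit. A value was counted as turned only if its sign changed and it was called in the main fit or in the alternative. Sign changes of values called in neither fit are among the 1625. The turned values were Aldoc at its next brightest probe set, which lies below background (0.22 for CD34+Flt3hi and 0.44 for CD34+Flt3- minus CD34-Flt3-), Epas1 at its next brightest (-2.39 and -2.15) and Epas1 as the mean of its probe sets (-1.11 for CD34+Flt3hi minus CD34-Flt3-). Members called between CD34+Flt3hi and CD34-Flt3- cells numbered 5 with the next brightest probe set, 5 with the 4 arrays compared alone and 1 to 11 when 1 array was left out, against 8 in the fit of all arrays. Between CD34+Flt3- and CD34-Flt3- cells they numbered 0 with the 4 arrays alone and 0 to 9 when 1 array was left out, against 3. The 9 came without CD34-Flt3- replicate 1, where Ddit4, Egln2, Eno2, Eno3, Ldhb and Pfkl passed as well. Between the CD34+ groups leaving out arrays gave 0 members, with 4 at an unadjusted p under 0.05 in the fit of all arrays.

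Of all genes, calls between CD34+Flt3hi and CD34-Flt3- cells went from 1112 to 729 with the next brightest probe set and 271 to 1918 when 1 array was left out. Between CD34+Flt3- and CD34-Flt3- cells they went from 382 to 199 with the mean of all probe sets, 204 with the next brightest, 47 with the 4 arrays alone and 0 to 983 when 1 array was left out. Between the CD34+ groups they went from 111 to 69, 73, 300 and 18 to 300 under the same settings. Repeated quantile normalization moved the split of higher and lower calls from 476 and 636 to 607 and 603 between CD34+Flt3hi and CD34-Flt3- cells, from 140 and 242 to 261 and 196 between CD34+Flt3- and CD34-Flt3- cells, and from 70 and 41 to 61 and 66 between the CD34+ groups. The next brightest and single probe sets were chosen after seeing the data. Median centring moved the median of all genes between CD34+Flt3hi and CD34-Flt3- cells from -0.07 to 0.04, and Pgam1 passed between CD34+Flt3- and CD34-Flt3- cells after repeated quantile normalization (1.02, limma adjusted p = 0.0285) where Aldoc and Pfkm did not (0.0634 and 0.0564).

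Replicate differences correlated across genes at 0.066 for CD34+Flt3hi with CD34+Flt3- cells, whose arrays share both codes. They correlated at 0.058 for CD34+Flt3hi with CD34-Flt3- and 0.31 for CD34+Flt3- with CD34-Flt3- cells. CD34-Flt3- replicate 1 has a code of its own, so these 2 values mix codes. Whether arrays of one title code deviate together is thus not settled, and the main fit does not pair the arrays. With that code entered as a fixed replicate block, 10 members passed between CD34+Flt3- and CD34-Flt3- cells, 3 between the CD34+ groups (Egln1, Hif1a and Pdk1, limma adjusted p = 0.016, 0.0311 and 0.0363) and 11 between CD34+Flt3hi and CD34-Flt3- cells, with 1579, 670 and 2360 genes in all. That block fits the single code C array exactly, so comparisons with CD34-Flt3- cells rest on its replicate 2. The spread then comes from the CD34+ arrays and the prior alone, with fewer residual degrees of freedom than the 3 of the main fit. Signal near background limits Eno2, Pdk2, Epas1 and the second Aldoc probe set.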
